A study of Mus musculus with 12 samples.

Results

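The 9 genes described here, Vsx1, Prkca, Trpm1, Cabp5, Pcp2, Isl1, Otx2, Gng13 and Scgn, are genes by which bipolar cells of the mouse retina are recognized. They were given as a list of symbols, and each symbol matched 1 of the 36131 genes in the deposited table. All 9 passed the filter on low counts, as did 16688 genes in all. Retinas of wildtype C57BL/6J mice were collected at P18, with 1 library per animal and 4 animals in each of 3 groups. RA-PBS mice (animals 1 to 4) stayed in room air, and O2-PBS (animals 5 to 8) and O2-IC100 mice (animals 9 to 12) were in 75% O2 from P7 until P12, an oxygen-induced retinopathy model in which vessels are lost and then regrow abnormally. By the labels, the intraperitoneal injections of P12, P14 and P16 were PBS in the first 2 groups and 10 µg/g IC100, a humanized antibody to the inflammasome adaptor ASC, in the third. The comparisons ask whether hyperoxia with recovery altered the level of these genes, and whether the level differed with IC100.

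Bipolar cells carry the signal of photoreceptors to amacrine and ganglion cells. Rod bipolar cells and ON cone bipolar cells receive glutamate through the receptor mGluR6, whose G protein cascade keeps the channel TRPM1 closed in the dark, and OFF cone bipolar cells use ionotropic glutamate receptors instead. In mice these cells are born and take on their identity in the first weeks after birth, and the transcription factors OTX2, ISL1 and VSX1 take part in that process.

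One library stood apart before any comparison. In O2-IC100 animal 10, a list of 9 lens genes took 34.0% of all counts, against at most 0.00303% in the other 3 O2-IC100 retinas and at most 0.00737% in O2-PBS. The lens share was 0.000541% in RA-PBS animal 1 and between 0.727 and 2.74% in RA-PBS animals 2 to 4. Total counts per retina ran from 14907143 to 24438082. The 10 rod genes summed to between 39497 and 47533 normalized CPM in 11 retinas and to 11808 in animal 10, where normalized CPM is the count of a gene scaled to the library size after TMM normalization. Each comparison was therefore made with 11 animals, without animal 10, and is also given with all 12. Over the 11 animals, single values of the 9 genes rested on 268 counts (Gng13) to 9000 counts (Trpm1).

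OTX2 and the related factor CRX, which control many genes of photoreceptors and bipolar cells, bind DNA at a core of TAATCC. The 250 bases before the start of each gene, from RefSeq on GRCm38.p6, were searched for TAATCC on both strands (GGATTA on the opposite strand). All 9 symbols matched at least 1 such window, and 4 of the 9 genes held the letters in at least 1 window, against 7.21% of 27025 genes. Of 32851 single windows, 6.25% held the letters. Genes with more annotated starts had more windows, 4 each for Pcp2 and Otx2, and so more chances of a match. The windows of Cabp5 (chr7:13397905-13398154, plus strand), Isl1 (chr13:116309689-116309938, minus strand) and the upstream start of Trpm1 (chr7:64153585-64153834, plus strand) are shown because they hold the match in genes whose levels differed in unlike ways. They are written 5′ to 3′ on the gene's strand, with the matches in capitals.

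Cabp5: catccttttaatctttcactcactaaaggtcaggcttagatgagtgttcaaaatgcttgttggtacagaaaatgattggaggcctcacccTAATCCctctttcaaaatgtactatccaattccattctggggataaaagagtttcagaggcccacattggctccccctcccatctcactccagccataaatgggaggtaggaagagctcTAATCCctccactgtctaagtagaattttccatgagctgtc

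Isl1: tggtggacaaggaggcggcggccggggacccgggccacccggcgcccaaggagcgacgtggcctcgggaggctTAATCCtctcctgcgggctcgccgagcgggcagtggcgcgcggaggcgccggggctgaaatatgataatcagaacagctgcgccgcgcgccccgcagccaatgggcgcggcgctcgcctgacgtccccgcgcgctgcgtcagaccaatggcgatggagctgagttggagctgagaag

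Trpm1: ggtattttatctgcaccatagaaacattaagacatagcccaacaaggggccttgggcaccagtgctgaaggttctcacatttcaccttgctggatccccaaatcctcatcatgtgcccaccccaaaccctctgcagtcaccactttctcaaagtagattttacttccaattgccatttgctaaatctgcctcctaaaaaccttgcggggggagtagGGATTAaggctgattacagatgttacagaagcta

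Cabp5 held the core 2 times on its own strand, 160 and 41 bases before its start, Isl1 1 time at 177 bases and Trpm1 1 time on the opposite strand at 34 bases. Otx2 held it at 211 bases before another of its annotated starts. The letters TAATTA, a core bound by many homeodomain factors such as ISL1 and VSX1 that shares TAAT with the first motif and reads the same on both strands, were found before Pcp2 and Otx2, 2 of the 9 genes, against 5.65% of all genes. Those 2 genes had 4 windows each, and 4.84% of single windows held these letters. A match of letters is not a binding site shown in these retinas.

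Per kilobase of annotated exon, Pcp2 and Otx2 had the highest levels of the 9 genes, and Vsx1 had the lowest. Over the 11 animals the mean was 62.3 ± 6.04 normalized CPM per kb (SD, n = 11) for Pcp2 and 57.6 ± 4.10 for Otx2. The next mean was 36.5 ± 11.7 for Scgn, followed by 34.8 ± 9.92 for Gng13 and 34.8 ± 5.37 for Prkca. Isl1, Cabp5 and Trpm1 had means of 27.9 ± 3.03, 26.8 ± 6.30 and 22.8 ± 5.21, and Vsx1 had 7.61 ± 2.31. Each neighbouring pair in this order overlapped across animals except Trpm1 and Vsx1, where the lowest Trpm1 value, 17.0, was above the highest Vsx1 value, 13.1.

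**Figure D1:**
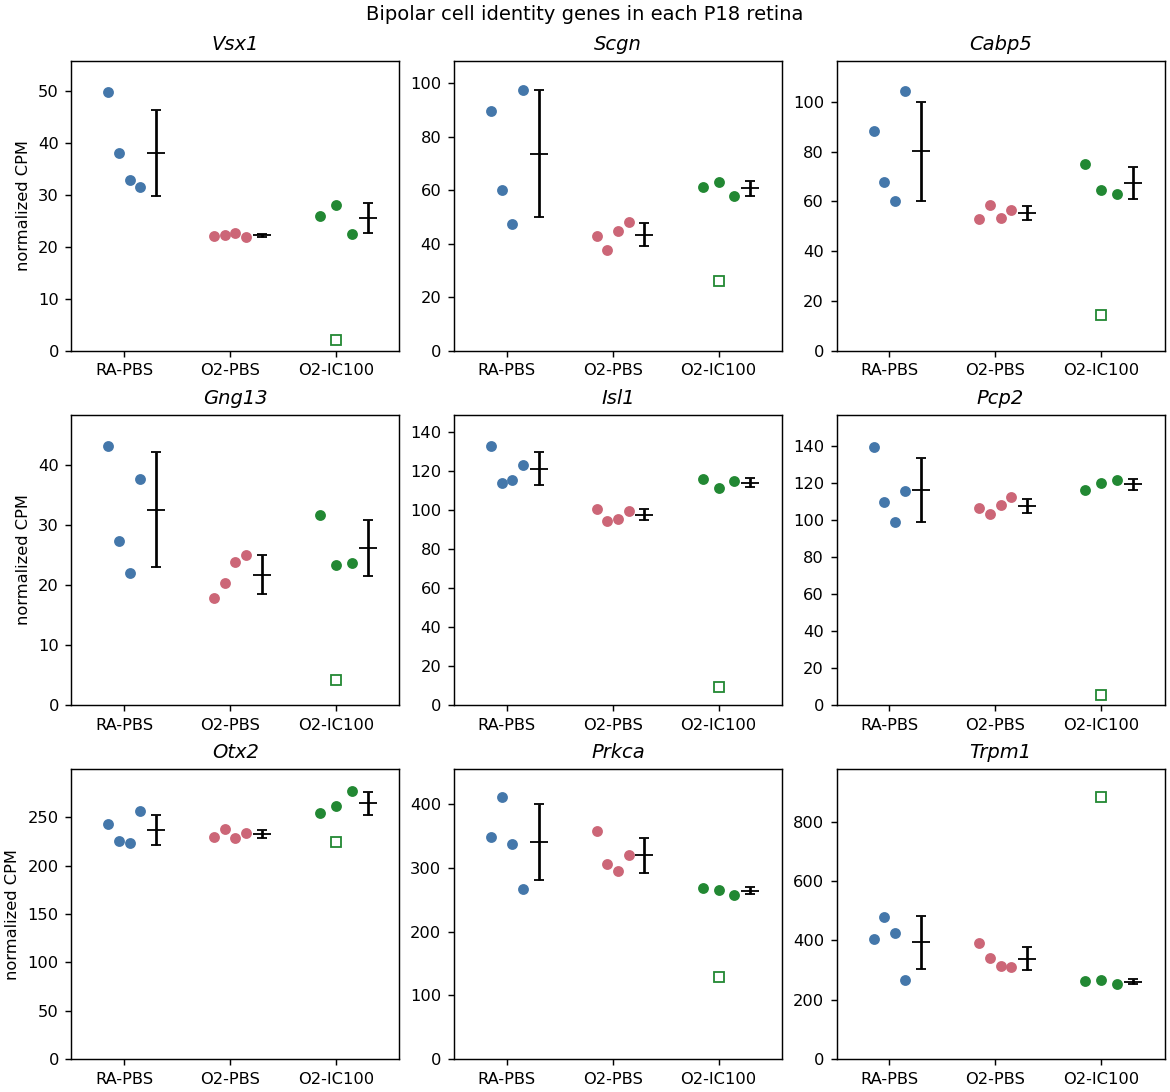
Normalized CPM (linear axis from 0) of each of the 9 genes in every retina by group, as filled circles with the mean and SD of the 11 animals beside them; the open square is O2-IC100 animal 10, which is not in the mean. The O2-PBS values of Vsx1, Cabp5 and Isl1 lie below every RA-PBS value.

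Between O2-PBS and RA-PBS, 5 of the 9 genes fell: the transcription factors Vsx1 and Isl1, the calcium-binding proteins Scgn and Cabp5, and the G protein subunit Gng13 (edgeR's quasi-likelihood test, Benjamini-Hochberg adjusted p under 0.1, 11 animals). None rose, and the means of all 9 were lower. Of all tested genes, 6.42% were called lower and 6% higher in this comparison. Over the 9 genes the median log2 fold change was -0.31, against -0.01 over all tested genes. At the study's additional fold change of 1.5, 2 of the 9 remained, Vsx1 and Scgn, against 2.18% of all tested genes. In whole retina, fewer bipolar cells and less RNA per bipolar cell cannot be told apart.

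Vsx1, a homeodomain transcription factor of cone bipolar cells, was at 49.7, 38.0, 32.8 and 31.5 normalized CPM in RA-PBS animals 1 to 4 and at 22.0, 22.2, 22.7 and 22.0 in O2-PBS animals 5 to 8. The lowest room-air retina was well above all 4 O2-PBS retinas, which were nearly equal. Its log2 fold change was -0.77 ± 0.13 (SE), a drop of 41.5%, with adjusted p = 0.00333 (edgeR). The O2-PBS mean was 22.2 ± 0.329 normalized CPM (SD, n = 4), against 38.0 ± 8.30 in RA-PBS (SD, n = 4).

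Isl1, a LIM homeodomain factor of ON bipolar cells that ganglion cells and cholinergic amacrine cells also express, was at 133, 114, 115 and 123 normalized CPM in RA-PBS and at 100.2, 94.5, 95.4 and 99.5 in O2-PBS. These groups did not overlap either, and the spread within each was small. The log2 fold change of Isl1 was -0.31 ± 0.07 (SE), with adjusted p = 0.0142 (edgeR). Of the 5 genes called, it changed least.

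Cabp5, a calcium-binding protein of rod bipolar cells and some cone bipolar types, was at 88.3, 67.9, 60.2 and 104.3 normalized CPM in RA-PBS and at 53.0, 58.7, 53.2 and 56.7 in O2-PBS. Here too every O2-PBS retina was below every RA-PBS retina, the closest being animals 3 and 6. Its log2 fold change was -0.53 ± 0.14 (SE), with adjusted p = 0.0347 (edgeR). Vsx1, Isl1 and Cabp5 were thus 3 of 9 genes whose groups did not overlap with O2-PBS lower, against 6.48% of all tested genes, and none had O2-PBS wholly higher (7.86% of all tested genes).

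Scgn encodes secretagogin, a calcium-binding protein of cone bipolar cells. It was at 89.4, 59.95, 47.5 and 97.5 normalized CPM in RA-PBS and at 42.9, 37.7, 44.6 and 48.2 in O2-PBS. RA-PBS animals 1 and 4 were high, while O2-PBS animal 8 lay just above RA-PBS animal 3, so the groups overlapped. Its log2 fold change was -0.76 ± 0.18 (SE), with adjusted p = 0.0209 (edgeR).

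Gng13, the G protein gamma subunit of the mGluR6 cascade in ON bipolar cells, was at 43.2, 27.3, 22.0 and 37.6 normalized CPM in RA-PBS and at 17.8, 20.4, 23.8 and 24.9 in O2-PBS. Animals 7 and 8 of O2-PBS were above RA-PBS animal 3. Its log2 fold change was -0.58 ± 0.19 (SE), with adjusted p = 0.0837 (edgeR). This call was lost when any 1 of animals 1, 4, 5, 6, 7, 8, 11 or 12 was left out, with adjusted p from 0.106 to 0.234, and the fold change without RA-PBS animal 1 was -0.41.

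The other 4 genes did not pass the test. Trpm1, the cation channel that the mGluR6 cascade closes, was at 405, 477, 424 and 265 normalized CPM in RA-PBS and at 392, 339, 312 and 310 in O2-PBS. Its 3 highest room-air values were above every O2-PBS value, and RA-PBS animal 4 was below them all. The log2 fold change of Trpm1 was -0.22 ± 0.15 (SE) with adjusted p = 0.427 (edgeR). Without RA-PBS animal 4 it was -0.36 with adjusted p = 0.0313 (edgeR), when 7.40% of all tested genes were called lower. Leaving out the 1 room-air retina below O2-PBS widens the difference by construction, so no conclusion is drawn from that fit. Of 25 alternative fits it was the only 1 that called Trpm1, and in 1 other the sign turned.

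Prkca, the protein kinase C alpha that marks rod bipolar cells, was at 349, 411, 338 and 267 normalized CPM in RA-PBS and at 358, 306, 295 and 321 in O2-PBS, and its log2 fold change was -0.09 (95% interval from its standard error, -0.32 to 0.13). Pcp2, a regulator of G protein signaling in rod bipolar and some cone bipolar cells, had a log2 fold change of -0.11 (-0.29 to 0.08). Otx2, a homeodomain factor of bipolar cells, photoreceptors and pigment epithelium, had one of -0.03 (-0.17 to 0.12). The groups of these 3 genes overlapped, and the adjusted p-values were 0.689, 0.547 and 0.866 (edgeR). The 95% intervals here and below use a normal approximation and are narrower than the quasi-likelihood test would give.

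With all 12 animals in the fit, none of the 9 genes was called in this comparison (edgeR), although animal 10 is in neither group and the fold changes stayed close, -0.77 for Vsx1 and -0.76 for Scgn. The spread is estimated over all 3 groups together, so animal 10 enters it. The standard error was 0.52 instead of 0.13 for Vsx1 and 0.11 instead of 0.07 for Otx2. Scgn, the 1 gene lower at an unadjusted p under 0.05 (2.5% of all tested genes), then had adjusted p = 0.515, and 0.0303% of all tested genes were called lower and 0.782% higher. DESeq2 with 12 animals also called none of the 9, and DESeq2 with 11 animals called 5. A lens covariate in the fit of 12 animals gave 6 lower, with Pcp2 added, against 8.62% of all tested genes. Fold changes were larger, for example -1.87 for Vsx1, -1.54 for Isl1, -1.58 for Pcp2 and -1.29 for Scgn. The lens level differed between the groups and was by far highest in animal 10, so this fit cannot cleanly separate lens from group. It also moved genes of other cells, with median log2 fold changes of -0.72 for 10 rod genes and -1.01 for 8 cone genes, against 0.01 and -0.10 with 11 animals.

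**Figure D2:**
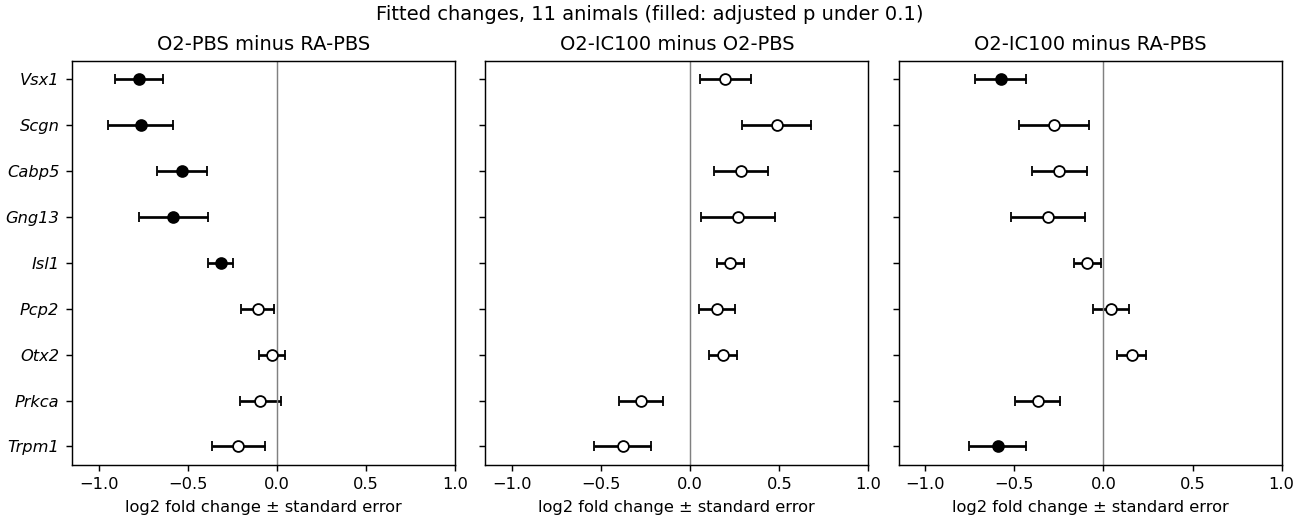
Log2 fold change with its standard error for each of the 9 genes in the 3 comparisons, from the fit of 11 animals; filled points have an adjusted p under 0.1. In O2-PBS minus RA-PBS all 9 points are below 0, from -0.77 to -0.03, and in O2-IC100 minus O2-PBS 7 are above 0 and 2 below with none filled.

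Other tissue markers moved with the same comparison. The list of 9 pigment epithelium genes summed to 86.3 to 271 normalized CPM in RA-PBS and 54.2 to 106 in O2-PBS, and 6 of its 9 genes were called lower. The lens list summed to 5.56 to 28211 in RA-PBS and 1.99 to 73.4 in O2-PBS, and 8 of 8 tested genes were called lower. RA-PBS animal 1, whose lens sum was 5.56 and pigment sum 86.3, had the highest value of Vsx1, Isl1, Pcp2 and Gng13 of all 11 animals. Cabp5 and Scgn were highest in RA-PBS animal 4 (lens sum 8609, pigment sum 215). Prkca and Trpm1 were highest in RA-PBS animal 2 (lens sum 7371, pigment sum 208), and Otx2 in O2-IC100 animal 12 (29.5 and 132). Animal 1 also had the highest sums of the amacrine, ganglion, horizontal and Müller glia lists. Of the genes of other inner retinal neurons, 5 of 10 ganglion cell genes, 3 of 10 amacrine cell genes and 1 of 4 horizontal cell genes were called lower and none higher. Of 8 Müller glia genes 6 were called lower, of 10 rod genes none was called (1 had an unadjusted p under 0.05, lower), and of 8 cone genes 1 was called lower and 1 higher. Endothelial genes were called higher for 7 of 8 and microglial genes for 3 of 8. The part of these tissues in the change of the 9 genes was not tested.

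The 11 animals also differed in 4 Y-linked genes, whose sum was 246 to 362 normalized CPM in 7 animals (1 to 3, 8, 9, 11 and 12) and 6.25 to 10.9 in 4 animals (4 to 7). For Vsx1, Isl1 and Cabp5, whose groups did not overlap, the order within the low or the high animals follows from that. For Scgn and Gng13, RA-PBS animal 4 was above all 3 O2-PBS animals among the low animals, with Scgn at 97.5 against 37.7 to 44.6 and Gng13 at 37.6 against 17.8 to 23.8 normalized CPM. Among the high animals the 3 RA-PBS animals lay on both sides of O2-PBS animal 8, with Scgn at 47.5 to 89.4 against 48.2 and Gng13 at 22.0 to 43.2 against 24.9. A fit with the Y-linked level as a covariate kept Vsx1, Isl1, Cabp5 and Scgn (adjusted p of 0.0224, 0.0427, 0.0234 and 0.0285, edgeR) and not Gng13 (adjusted p = 0.142), when 4.67% of all tested genes were called lower.

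Genes that work beside these 9 in bipolar cells were read from 3 further lists of 33 genes, all of which were tested. Between O2-PBS and RA-PBS 11 of the 33 fell and 1 rose, against 6.42% and 6% of all tested genes. The median log2 fold change of the 33 was -0.24. In edgeR, the count that fell was 4 with the Y-linked covariate (4.67% of all tested genes) and 0 with all 12 animals (0.0303%). It was 5, 5, 4, 6 and 7 without animal 1, 6, 7, 8 or 12. The shares of all tested genes in those fits are not given, so a general drop in calls cannot be told apart. In the mGluR6 cascade 2 of 9 fell, Rgs7, which speeds the shutoff of the G protein, at -0.50 (adjusted p = 0.0131, edgeR) and Gnao1, the G protein alpha subunit, at -0.29 (adjusted p = 0.0816, edgeR). Gnb3, the beta subunit that ON bipolar cells share with cones, rose by 0.62 ± 0.09 on the log2 scale (SE), with adjusted p = 0.000852 (edgeR). It was at 297 to 360 normalized CPM in RA-PBS and at 452 to 523 in O2-PBS, with no overlap. Gng13 and Gnb3, 2 subunits of one G protein, thus differed in opposite directions.

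The receptor Grm6 itself, which encodes mGluR6, had a log2 fold change of -0.29 and adjusted p = 0.107 (edgeR). The cascade's anchoring proteins Nyx and Gpr179 were at -0.16 and -0.37 and the regulator Rgs11 at 0.07, none of them called. These genes therefore had no shared direction that passed the test.

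Of 10 transcription factors, 3 fell: Irx6 at -0.58, Lhx3 at -0.52 and Fezf2 at -0.43, with adjusted p of 0.0377, 0.0722 and 0.0752 (edgeR). With the Y-linked covariate 0 of the 10 were called and 5 were lower at an unadjusted p under 0.05 (11.4% of all tested genes). With all 12 animals 0 were called and 0 had an unadjusted p under 0.05 (edgeR). Bhlhe23 at -0.32, Lhx4 at -0.13, Sebox at -0.34, Irx5 at 0.17 and Sox6 at 0.16 were not called. Of 14 genes of bipolar subtypes, 6 fell and the means of all 14 were lower. Tacr3, the neurokinin 3 receptor of some cone bipolar cells, fell most, from 20.8 to 38.1 normalized CPM in RA-PBS to 10.7 to 16.9 in O2-PBS, a log2 fold change of -1.07 ± 0.18 (SE) with adjusted p = 0.00310 (edgeR). Grik1, the kainate receptor subunit of OFF bipolar cells, was at -0.58, Cabp2 at -0.66, Car8 at -0.41, Erbb4 at -0.57 and Pcdh10 at -0.33, with adjusted p of 0.00854, 0.0916, 0.0232, 0.0483 and 0.0670 (edgeR).

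**Figure D3:**
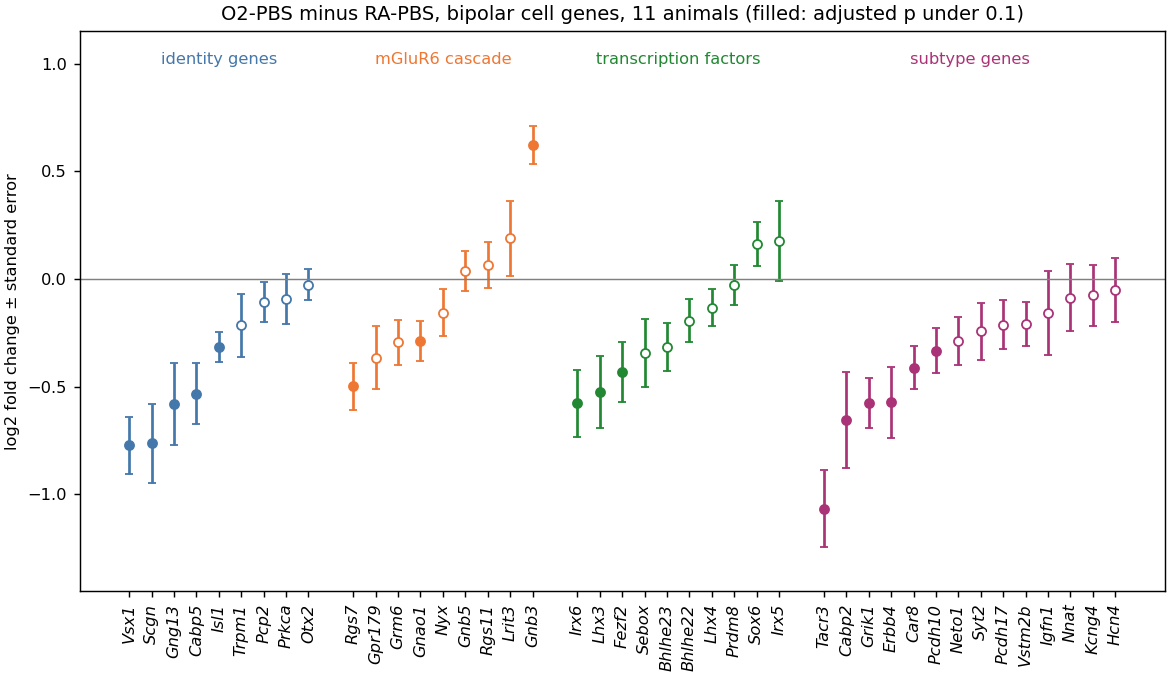
Log2 fold change with its standard error, O2-PBS minus RA-PBS, fit of 11 animals, for the 9 identity genes and 33 genes of 3 further bipolar cell lists, sorted within each list; filled points have an adjusted p under 0.1. Filled points lie below 0, from Tacr3 at -1.07 upward, with the exception of Gnb3 at 0.62.

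Between O2-IC100 and O2-PBS none of the 9 genes was called with 11 animals (edgeR), when 0.461% of all tested genes were called higher and 0.851% lower. At an unadjusted p under 0.05, 3 of the 9 were higher, Isl1, Scgn and Otx2, and 2 lower, Trpm1 and Prkca, against 10.3% and 8.91% of all tested genes. DESeq2 called 1, Isl1, and limma voom called none. The means of 7 genes were above those of O2-PBS and 2 were below, and the median log2 fold change was 0.20, against 0.00 over all tested genes.

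Scgn was at 61.3, 63.0 and 57.7 normalized CPM in O2-IC100 animals 9, 11 and 12, all above the 4 O2-PBS retinas, and its log2 fold change was 0.48 ± 0.20 (SE) with adjusted p = 0.222 (edgeR). Isl1 was at 116, 111 and 115, also above every O2-PBS retina, a log2 fold change of 0.22 ± 0.07 (SE) with adjusted p = 0.173 (edgeR). Cabp5 was at 74.9, 64.5 and 63.1, Pcp2 at 116, 120 and 122 and Otx2 at 255, 262 and 277 normalized CPM. With Scgn and Isl1, these 3 made 5 of 9 genes whose O2-IC100 values lay above all O2-PBS values, against 19.4% of all tested genes. Vsx1 at 25.9, 28.1 and 22.4 and Gng13 at 31.6, 23.3 and 23.6 normalized CPM overlapped O2-PBS, and their log2 fold changes were 0.20 (95% interval -0.09 to 0.48) and 0.27 (-0.14 to 0.67).

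Trpm1 and Prkca lay the other way. Trpm1 was at 262, 267 and 251 normalized CPM in O2-IC100 animals 9, 11 and 12, below all 4 O2-PBS retinas, and its log2 fold change was -0.38 ± 0.16 (SE) with adjusted p = 0.234 (edgeR). Prkca was at 269, 266 and 258, again below every O2-PBS retina, a log2 fold change of -0.28 ± 0.13 (SE) with adjusted p = 0.254 (edgeR). These were 2 of 9 genes with O2-IC100 below all O2-PBS values, against 16% of all tested genes.

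These calls differed with the animals in the fit. In a fit of only O2-IC100 and O2-PBS, without the more variable RA-PBS retinas, 5 of the 9 genes were called higher (Cabp5, Isl1, Otx2, Pcp2 and Scgn) and 2 lower (Prkca and Trpm1), but 17.5% and 16.5% of all tested genes were then called as well. Leaving out RA-PBS animal 4 alone gave 2 higher and 2 lower, against 6.98% and 5.91% of all tested genes. The animals of high Y-linked level include all 3 O2-IC100 retinas and only animal 8 of O2-PBS. With the Y-linked level as a covariate, none of the 9 genes was called (edgeR), when 0.0959% of all tested genes were called higher and 0.138% lower. At an unadjusted p under 0.05, 4 were higher and 2 lower, against 13.3% and 9.72% of all tested genes, and the log2 fold changes ran from -0.63 for Trpm1 to 0.65 for Scgn. The pigment epithelium list summed to 128 to 149 normalized CPM in these 3 O2-IC100 retinas, above the 54.2 to 106 of O2-PBS, with none of its 9 genes called, and its part in these values was not tested.

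None of the 33 genes of the other bipolar lists was called between O2-IC100 and O2-PBS (edgeR). At an unadjusted p under 0.05 (edgeR), 5 were higher and 2 were lower, against 10.3% and 8.91% of all tested genes. DESeq2 called 1 higher and 2 lower. Gnb3 was at 395 to 423 normalized CPM in O2-IC100, below O2-PBS, a log2 fold change of -0.25 ± 0.09 (SE) with adjusted p = 0.197 (edgeR).

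With animal 10 included none of the 9 genes was called either by edgeR or DESeq2, and 0 had an unadjusted p under 0.05 (edgeR), against 11.7% of all tested genes higher and 5.22% lower. None had O2-IC100 values all above O2-PBS (background 11.1%), and only Prkca had them all below (9.64%). The log2 fold change of Trpm1 was then 0.26 instead of -0.38, and those of Vsx1, Cabp5, Pcp2, Isl1 and Gng13 were -0.18, -0.04, -0.26, -0.17 and -0.08. Of the 9 genes, Otx2, Scgn and Prkca kept their direction.

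Between O2-IC100 and RA-PBS, 2 of the 9 genes were called, both lower, Vsx1 with a log2 fold change of -0.58 ± 0.14 (SE) and Trpm1 with -0.59 ± 0.16 (SE). Of all tested genes, 1.31% were called lower and 1.22% higher. The adjusted p-values were 0.0810 for Vsx1 and 0.0994 for Trpm1 (edgeR). Trpm1 alone passed the study's fold change of 1.5, when 0.617% of all tested genes were called lower. All 3 O2-IC100 values of Vsx1, 22.4 to 28.1 normalized CPM, were below the lowest room-air value, 31.5, which held for 4.92% of all tested genes and, with animal 10 included, for Vsx1 and 2.92%. None of the 9 had O2-IC100 wholly higher, which held for 5.84% of all tested genes, or 2.86% with animal 10. For Trpm1 the O2-IC100 values reached 267, just above RA-PBS animal 4 at 265. Neither call was firm. Vsx1 lost it without any 1 of animals 2, 6, 7, 8, 9, 11 or 12 and Trpm1 without any 1 of the 10 animals other than RA-PBS animal 4, with adjusted p up to 0.346 and 0.356. With all 12 animals neither gene was called by edgeR or DESeq2. No gene at all was then called by edgeR in either direction, and 1 of the 9, Prkca, had an unadjusted p under 0.05, lower, against 4.2% of all tested genes.

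The other 7 genes were not called against RA-PBS. Scgn, Cabp5 and Gng13 had log2 fold changes of -0.28 (95% interval -0.66 to 0.10), -0.25 (-0.55 to 0.05) and -0.31 (-0.72 to 0.09). Isl1 was at -0.09 (-0.24 to 0.06) and Pcp2 at 0.04 (-0.16 to 0.24). Prkca was at -0.37 (-0.61 to -0.12) with adjusted p = 0.173 and Otx2 at 0.16 (0.00 to 0.31) with adjusted p = 0.359 (edgeR). For Otx2 the unadjusted p was 0.0666 (edgeR), so its interval is narrower than that test would give. In the other bipolar lists, Tacr3 and Grik1 were called lower at -0.75 and -0.48 and Gnb3 higher at 0.37, with adjusted p of 0.0857, 0.0863 and 0.0810 (edgeR). Comparisons that share a group share its animals, so the 3 sets of values are not independent of each other.

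Among themselves the 9 genes varied in 2 ways over the 11 animals. Trpm1 and Prkca went together, with Pearson's r = 0.964 and Spearman's rho = 0.900 of their log2 CPM over 11 animals. Scgn and Cabp5 did too, with r = 0.935 and rho = 0.900, as did Gng13 with Cabp5 at r = 0.894 and rho = 0.764. Between the pairs there was little relation, r = -0.194 for Scgn and Trpm1, and Otx2 ran against Trpm1 at r = -0.808. These are descriptions and not tests, over animals of 3 groups, and both genes of a pair were read from the same libraries.

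Trpm1 and Prkca have the longest exon sequence of the 9 genes, 14746 and 8992 bases, and Gng13 and Scgn have the shortest, 773 and 1619 bases. Libraries differed in how their values depended on length over all tested genes. The slope of an animal's log2 deviation per doubling of length was 0.07 in RA-PBS animal 2, -0.08 in RA-PBS animal 4 and -0.03 in each of O2-IC100 animals 9, 11 and 12. In RA-PBS animals 1 and 3 it was -0.02 and 0.03, and in O2-PBS animals 5 to 8 it was 0.06, 0.02, -0.003 and 0.005. Trpm1 and Prkca were highest in animal 2 among the 11 and Trpm1 was low in animal 4, where Scgn and Cabp5 were highest. The short genes Gng13 and Pcp2 (1828 bases) were instead highest in RA-PBS animal 1, at 43.2 and 140 normalized CPM against 37.6 and 116 in animal 4. Length as a cause of these differences was not tested. After a correction for length, added after seeing the data, the log2 fold change of Trpm1 between O2-IC100 and O2-PBS was -0.21 and that of Prkca -0.17. The 5 genes called between O2-PBS and RA-PBS were still 5, with Gng13 at adjusted p = 0.0620 (edgeR), but 9.6% of all tested genes were then called lower and their median log2 fold change was -0.072.

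**Figure D4:**
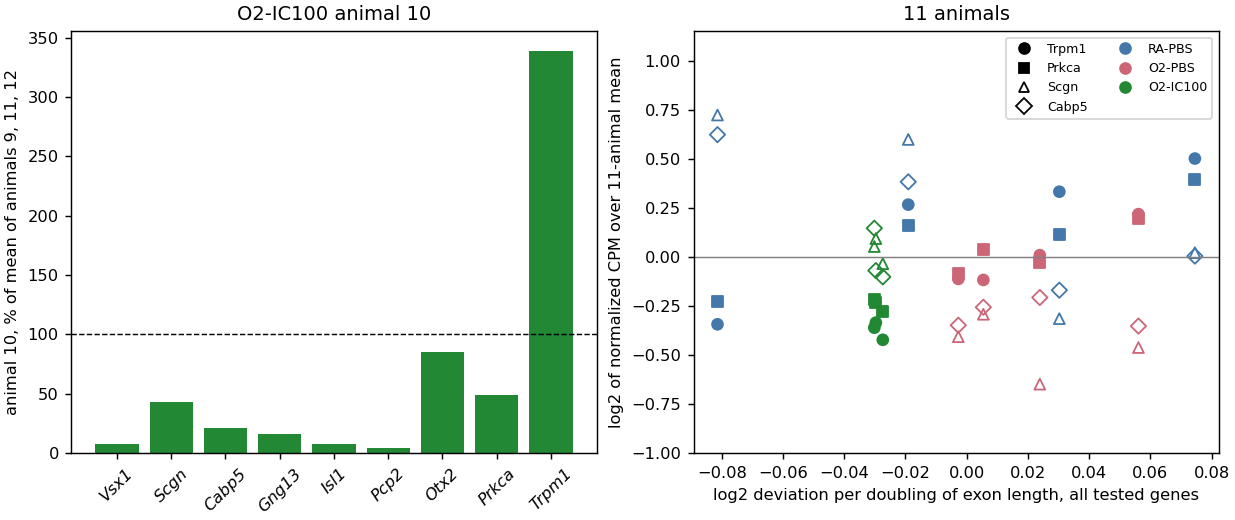
Left, bars from 0, level of each of the 9 genes in O2-IC100 animal 10 as a percent of the mean of animals 9, 11 and 12, with the dashed line at 100%. Right, one point per animal and gene for the 11 animals, log2 of normalized CPM over the 11-animal mean against the animal's slope on exon length; Trpm1 and Prkca (filled) are higher toward the right, from animal 4 at -0.08 to animal 2 at 0.07, and Scgn and Cabp5 (open) are highest in animal 4.

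In lens-rich animal 10 the 9 genes did not fall by one factor. Pcp2 was at 5.38 normalized CPM, 4.51% of the mean of the other 3 O2-IC100 retinas, Isl1 at 7.93% and Vsx1, with 14 counts, at 8.00%. Gng13, Cabp5, Scgn and Prkca were at 16.1, 21.1, 42.7 and 48.9% of that mean. Otx2 stood at 224 normalized CPM, or 84.8%, and Trpm1 at 881, or 339%. Both are also expressed by pigmented cells of the eye, and the pigment epithelium list summed to 8124 normalized CPM in this library, with Rpe65, an enzyme of the visual cycle, at 673 against 12.9 to 19.5 in the other 3. The part of those cells in the Trpm1 and Otx2 values of animal 10 was not tested.

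The genes outside all lists whose pattern over the 11 animals was most like the mean of the 9, of 14885 genes compared, were Tmcc2, Sult4a1, Krt222, Elmo1 and Nrsn1. Their Pearson's r with that mean was 0.988, 0.984, 0.984, 0.981 and 0.980, and their Spearman's rho ranged from 0.927 to 0.991, over 11 animals. Between O2-PBS and RA-PBS their log2 fold changes were -0.41, -0.52, -0.54, -0.50 and -0.73, values that follow from how they were chosen and are no separate result.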

How the data were processed

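Total RNA of whole retinas was poly(A) selected and sequenced as 150 bp paired-end reads, 1 library per animal. The authors pseudoaligned reads to the GRCm39 transcriptome with Kallisto and tximport gave gene sums. The values deposited by the authors are therefore estimated counts (expected counts), without scaling for library size. Reads shared by similar transcripts were divided by Kallisto's model. After rounding, edgeR 4.0.16 (R 4.3.3) was used with TMM, filterByExpr, a robust quasi-likelihood fit of the 3 groups, a two-sided F test and Benjamini-Hochberg adjustment over all 16688 tested genes. A gene was called at an adjusted p under 0.1, the study's false discovery threshold. The reported values used 11 animals, without O2-IC100 animal 10. Alternatives were all 12 animals, DESeq2 1.42.0, limma voom 3.58.1, other normalizations and filters, lens and Y-linked covariates, only the 2 groups compared, each animal left out, and a length correction added after seeing the data. For DESeq2, limma voom and most fits leaving out 1 animal, the share of all tested genes called is not given. Counts of list genes from those fits are therefore not weighed against it. Exon lengths and promoters came from GRCm38, the lengths matched by gene identifier and the promoters by symbol. The procedure was tested on simulated data. The p-values weigh the difference between groups against the spread between animals within groups, which was estimated over all 3 groups together.

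The 9 genes and all lists were chosen with earlier results of these data known. One gene of the lists is not reported here. Named from the other lists were 11 genes whatever their values and up to 8 further called genes by smallest p. Those most alike were the 5 with the highest Pearson correlation at a mean of at least 1 CPM.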

Additional observations from a re-analysis of the deposited data

Results flagged for a closer look

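In groups of 4 animals a value was marked when its gap to the nearest other animal, divided by the range of the group, was above Dixon's 95% critical value for 4 samples. Of 27 groups (9 genes in 3 groups), 5 were marked, all through O2-IC100 animal 10, the lens-rich library. Chance marks about 1 in 20 independent groups, but these 5 share 1 library already set apart by its lens share, so that rate does not apply to them. Prkca at 129 normalized CPM, Pcp2 at 5.38, Isl1 at 9.02 and Scgn at 25.9 were the lowest of their group, and Trpm1 at 881 was the highest.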

How the results depend on the processing

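Between O2-PBS and RA-PBS the count of the 9 genes called lower, 5 of 9 with 11 animals, was 4 to 5 under other 11-animal fits, 6 with a lens covariate in the 12-animal fit, 2 at the study's fold change of 1.5, and 0 with all 12 animals in edgeR, DESeq2 or with the length correction. Leaving out 1 animal gave 4 to 5. The count of the other 33 bipolar list genes called lower, 11, was 0 with all 12 animals in the same 3 fits. It was 20 with the lens covariate and 4 with the Y-linked covariate, when 8.62% and 4.67% of all tested genes were called lower. It was 7 with library sizes from rod genes or upper quartile normalization and 6 with only the 2 groups compared. At the fold change of 1.5 it was 2, and it was 4 to 14 when 1 animal was left out. Of the 33 genes, 1 was called higher with 11 animals in each fit and 0 in the 4 fits of 12 animals. Between O2-IC100 and O2-PBS, DESeq2 called 1 of the 9 higher, and leaving out 1 animal gave 0 to 2 in either direction. The fit of only 2 groups called 5 higher and 2 lower, against 17.5% and 16.5% of all tested genes. Of the 33 other genes, DESeq2 called 1 higher and 2 lower, and leaving out 1 animal gave 0 to 1 higher and 0 to 2 lower. The fit of only 2 groups called 6 of the 33 higher and 6 lower, near those shares of all tested genes. Between O2-IC100 and RA-PBS the count of the 9 genes called lower, 2, was 0 with all 12 animals in edgeR, DESeq2 or with the length correction, 0 with rod-gene library sizes or only the 2 groups, 1 with limma voom, upper quartile normalization, a mean of at least 1 CPM or the fold change of 1.5, 3 with DESeq2 or the Y-linked covariate and 7 with the lens covariate. Leaving out 1 animal gave 0 to 3 lower and 0 to 1 higher. Of the 33 other genes the count called lower, 2, was 0 in the same 3 fits of 12 animals, with rod-gene library sizes or only the 2 groups, 1 with limma voom, the length correction or the fold change of 1.5, 5 with the Y-linked covariate, 7 with DESeq2 and 25 with the lens covariate. Leaving out 1 animal gave 0 to 14 lower, the highest without RA-PBS animal 4, and 0 to 2 higher, and the 1 called higher was lost (0) in those 3 fits of 12 animals, with rod-gene sizes, no filter, only the 2 groups, the length correction or the fold change of 1.5. Counts given here without the share of all tested genes under the same fit describe only how the calls moved. They are not read as results about bipolar cell genes. Signs turned for some log2 fold changes. In O2-PBS minus RA-PBS, Prkca was 0.032 with the Y-linked covariate and 0.016 without RA-PBS animal 2, Otx2 was 0.022 with upper quartile normalization and -0.052 to 0.012 when 1 animal was left out, and Trpm1 was 0.29 with the lens covariate. In O2-IC100 minus O2-PBS, the fits of all 12 animals by edgeR, DESeq2 and the length correction gave Vsx1 -0.18, -0.19 and -0.16, Trpm1 0.26, 0.29 and 0.66, Cabp5 -0.045, -0.042 and -0.075, Pcp2 -0.26, -0.26 and -0.30, Isl1 -0.17, -0.17 and -0.13, and Gng13 -0.077, -0.078 and -0.080. In O2-IC100 minus RA-PBS they gave Trpm1 0.040, 0.070 and 0.39 and Pcp2 -0.36, -0.37 and -0.46, and Pcp2 was also -1.49 with the lens covariate, -0.068 with the length correction and -0.037 to 0.14 when 1 animal was left out. The cause was not tested. Of 675 values of single genes under an alternative, 564 kept direction and side of the threshold, a count that includes genes called in neither fit. For the calls between O2-PBS and RA-PBS it was 22 of 25 for each of Vsx1, Isl1, Cabp5 and Scgn and 9 of 25 for Gng13. For the calls between O2-IC100 and RA-PBS it was 13 of 25 for Vsx1 and 6 of 25 for Trpm1. No paired analysis was possible because the animals are numbered 1 to 12 and no number is shared between groups.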
